A study of Macaca mulatta with 4 samples.

Results

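The endothelial genes of the blood-brain barrier were examined in RNA sequencing of the amygdala of rhesus macaques (Macaca mulatta). The set comprised 10 genes, chosen for their function with earlier results of these data known. It held the junction genes CLDN5, CDH5, PECAM1 and ESAM, the growth factor receptor genes FLT1, KDR, TEK and TIE1, the blood clotting gene VWF and the drug efflux gene ABCB1. Gene IDs were found for 9 of the 10 among 35395 IDs in the deposited table, and ABCB1 was not analysed here. The study compared 2 libraries from infant macaques exposed to sevoflurane, an inhaled general anaesthetic, with 2 from controls, with 1 female and 1 male in each condition. All animals were labelled wild type. The sevoflurane animals inhaled about 2.5 to 3% of the agent in sessions of 4 hours near postnatal days 7, 21 and 35, and the amygdala was taken straight after the third exposure. No source used here gives the age of the controls or the gas they breathed. The labels mention no sorting of vessels or cells, so RNA of all cell types of the tissue was sequenced together.

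Brain endothelial cells line the capillaries and form a barrier that most solutes cannot cross between cells. Claudins and other tight junction proteins seal neighbouring cells, VE-cadherin holds them together at adherens junctions, and transporters move nutrients in and drugs out. The VEGF receptors and the angiopoietin receptors at the cell surface control vessel growth and vessel stability.

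The 4 libraries held 13615927 to 14413858 reads on genes in the sevoflurane group and 12477047 to 16293371 in controls. Levels are given as CPM, read counts brought to a common library size, with TMM scaling to even out differences in library composition. A gene was called higher or lower at a Benjamini-Hochberg adjusted p under 0.05 in edgeR's quasi-likelihood test over 15417 genes. The conditions differed across the transcriptome, with 40.7% of tested genes called, 21.3% higher and 19.4% lower. Cytosolic ribosomal protein genes, which have short messenger RNAs and formed a list added after the data were seen, summed to 10425 and 10954 CPM in the sevoflurane female and male, against 29620 and 42629 CPM in the control female and male. The 71 genes of that list held 76 gene IDs, of which 65 were called lower and 0 higher. The control male library stood apart in 9 choroid plexus markers, which summed to 35.4 and 10.4 CPM in the sevoflurane female and male, against 55.6 CPM in the control female and 19705 CPM in the control male. The part of these library-wide differences in the results below was not tested.

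Members of the endothelial set moved in opposite directions. FLT1 and CDH5 were called higher in the sevoflurane libraries, CLDN5 and ESAM were called lower, and 5 of the 9 measured genes were not called. The called share of 44.4% lay near the 40.7% of all tested genes. Each fit that left out 1 library called fewer of all tested genes than the fit on all 4 libraries. Counts called in such fits, here and in the lists below, are to be read beside that. All 4 genes were called in the fit that left out the control male library, 3 in that without the sevoflurane female, and 2, CLDN5 and FLT1, in that without the sevoflurane male. The median log2 fold change of the 9 genes was −0.12, beside 0.0040 for all tested genes, and the median absolute change was 0.97 beside 1.05. The sign of the members' median was unstable, and it stood at 0.33 without the control male library, at 0.087 without the sevoflurane male library and at 0.12 with library totals in place of TMM. In CPM the sevoflurane and control libraries did not overlap for 8 of the 9 genes, and the same held for 75.0% of all tested genes. Both sevoflurane libraries lay above both controls for 4 of the 9, beside 37.7% of tested genes, and below them for 4, beside 37.3%. All 9 genes passed the filter on low counts and had reads in every library. FLT1 and CDH5 passed it through their sevoflurane libraries, since the control male library was under the limit for both. Among genes named below, ABCC4, JAG1 and EFNB2 also passed through their sevoflurane libraries. SOX18, CLDN3, MMRN1 and HBQ1 passed through their control libraries.

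**Figure D1:**
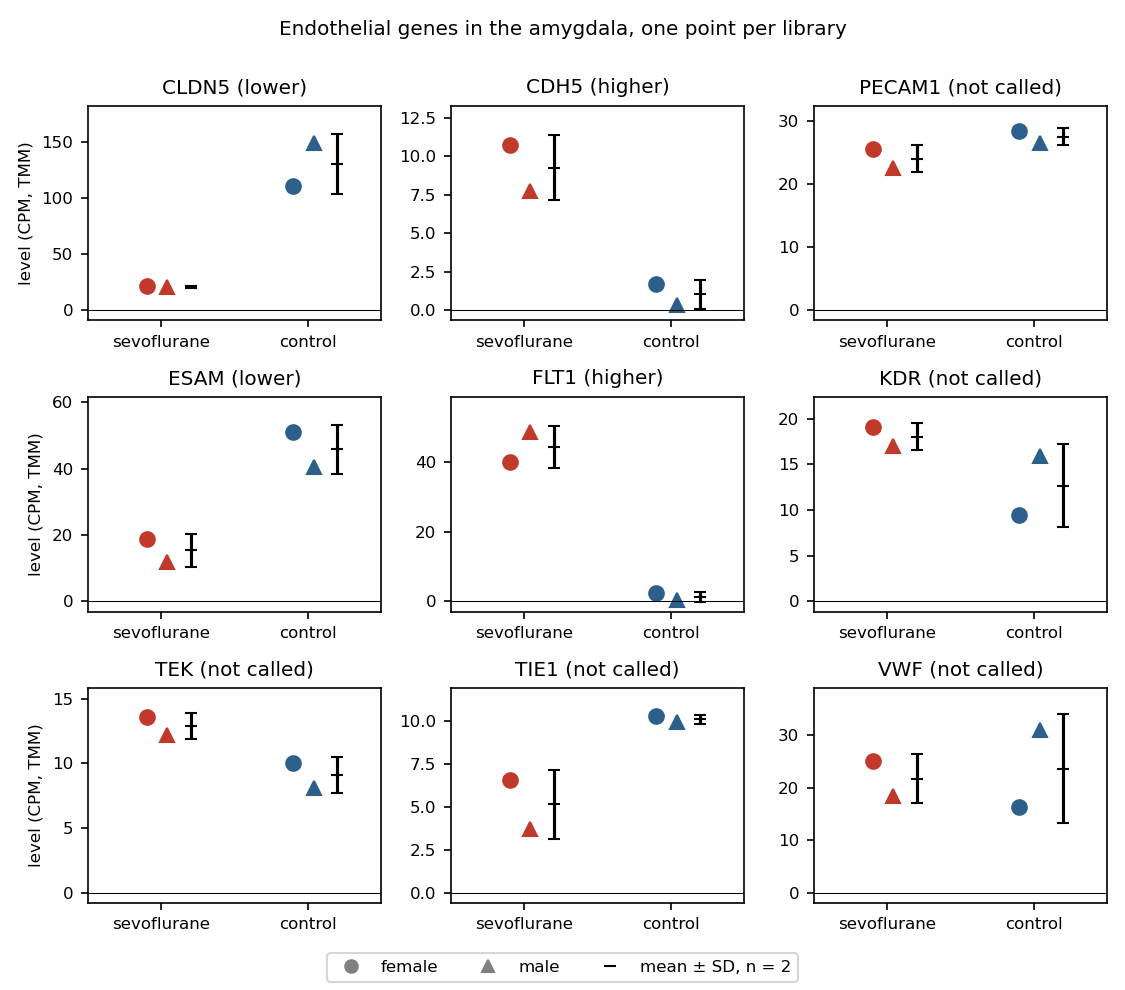
Levels of 9 endothelial genes in CPM with TMM scaling, with sevoflurane libraries in red on the left and control libraries in blue on the right of each panel. Circles are females, triangles males, and black bars give the mean ± SD of 2 libraries. Both sevoflurane libraries lie below both controls for CLDN5 and ESAM and above both for FLT1 and CDH5, and VWF is the 1 gene whose groups overlap.

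CLDN5 encodes claudin-5, the main claudin of the tight junctions that seal the brain endothelium. It stood at 21.5 and 20.4 CPM in the sevoflurane female and male, against 110.9 and 149.0 CPM in the control female and male. The means were 20.9 ± 0.749 CPM with sevoflurane and 129.9 ± 26.9 CPM in controls (SD, n = 2 each). CLDN5 fell by 2.63 ± 0.29 on the log2 scale (SE), a level 6.20-fold lower, with an edgeR adjusted p of 0.00227, and was lower in both sexes. The call held in the fits without any 1 library, where the log2 fold change ran between −2.81 and −2.44. In whole tissue, fewer endothelial cells and less RNA per cell cannot be told apart. The part of the library-wide differences in the fall of CLDN5 was not tested.

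ESAM, an adhesion molecule of endothelial tight junctions, also fell. It was at 18.9 and 11.7 CPM in the sevoflurane female and male, against 51.1 and 40.5 CPM in the control female and male. Its log2 fold change was −1.58 ± 0.36 (edgeR adjusted p = 0.0160). The call was lost without the sevoflurane male library, where the log2 fold change was −1.27 (edgeR adjusted p = 0.0628).

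CDH5 encodes VE-cadherin, the cadherin of endothelial adherens junctions, and it went the other way. It had 170 and 113 reads in the sevoflurane female and male, against 26 and 4 reads in the control female and male. As levels these were 10.8 and 7.76 CPM with sevoflurane, against 1.70 and 0.355 CPM in controls. Counting error alone places the control male value between 0.0968 and 0.910 CPM (95% exact Poisson interval), which leaves out the spread between animals. CDH5 rose by 3.13 ± 0.79 on the log2 scale (edgeR adjusted p = 0.0223). The size of the rise depended on the control libraries, at 4.69 with the control female left out and 2.41 with the control male left out. Its call was lost without the sevoflurane female (2.89, edgeR adjusted p = 0.0912) and without the sevoflurane male library (3.35, edgeR adjusted p = 0.0680).

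PECAM1 encodes CD31, an adhesion molecule of endothelial junctions that leukocytes and platelets also carry. Its level was 25.6 and 22.5 CPM in the sevoflurane female and male, against 28.5 and 26.6 CPM in the control female and male. The log2 fold change of −0.20 ± 0.29 was not called (edgeR adjusted p = 0.616), and it was 0.035 with library totals in place of TMM. The 4 junction genes of the set therefore held 1 called rise, 2 called falls and 1 gene without a call.

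FLT1 and KDR encode the VEGF receptors VEGFR1 and VEGFR2. VEGFR2 carries most of the growth signal in endothelium, while VEGFR1 binds VEGF tightly and also exists as a soluble form that traps it. FLT1 had 631 and 705 reads in the sevoflurane female and male, against 36 and 4 reads in the control female and male. In CPM this was 39.9 and 48.4 with sevoflurane, against 2.35 and 0.355 in controls. The rise of FLT1 was the steepest of the set, 4.97 ± 0.75 on the log2 scale or 31.3-fold (edgeR adjusted p = 0.00464), and 98.1% of all tested genes had a lower log2 fold change. FLT1 was called in each fit without 1 library, at 6.95 when the control female was left out and 4.20 when the control male was. Counts per gene do not separate the soluble from the membrane form.

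KDR was at 19.1 and 17.0 CPM in the sevoflurane female and male, against 9.46 and 15.9 CPM in the control female and male. The control male library lay close under the sevoflurane libraries. The log2 fold change of 0.51 ± 0.39 was not called (edgeR adjusted p = 0.331). Reads of FLT1 per read of KDR numbered 2.09 and 2.85 in the sevoflurane female and male, against 0.248 and 0.0223 in the control female and male. More reads thus fell on FLT1 than on KDR in both sevoflurane libraries and fewer in both controls, with no correction for gene length. The ratio needs no scaling between libraries, but it rests on the same FLT1 counts as the levels above. It carries no test, and no share over other gene pairs is given here.

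TEK and TIE1 encode the angiopoietin receptor TIE2 and its partner TIE1. TEK was at 13.6 and 12.2 CPM in the sevoflurane female and male, against 10.05 and 8.08 CPM in the control female and male. TIE1 was at 6.58 and 3.71 CPM with sevoflurane, against 10.3 and 9.95 CPM in controls, again female before male. The log2 fold changes were 0.51 ± 0.38 for TEK and −0.97 ± 0.48 for TIE1, and neither was called (edgeR adjusted p = 0.326 and 0.149). The sevoflurane libraries did not overlap the controls for either receptor, above them for TEK and below them for TIE1. Within a library, 2.07 and 3.28 reads fell on TEK per read on TIE1 in the sevoflurane female and male, against 0.975 and 0.812 in the control female and male. That ratio also carries no test and no share over other gene pairs.

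VWF encodes von Willebrand factor, a clotting protein stored in endothelial cells and platelets. It was at 25.0 and 18.5 CPM in the sevoflurane female and male, against 16.3 and 31.0 CPM in the control female and male. These groups overlapped, and the log2 fold change of −0.12 ± 0.41 was not called (edgeR adjusted p = 0.834). The difference in log2 CPM was 0.61 in females and −0.74 in males, and opposite signs in the sexes were found for 14.6% of all tested genes. The sign of the fitted change turned without the control male library (0.38), without the sevoflurane male library (0.087) and with library totals (0.12). The platelet markers PF4, PPBP and GP9 had 0 to 2 reads in each library. ITGA2B, another platelet marker, passed the filter on low counts and was not called. The part of platelets in the VWF values was not tested.

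**Figure D2:**
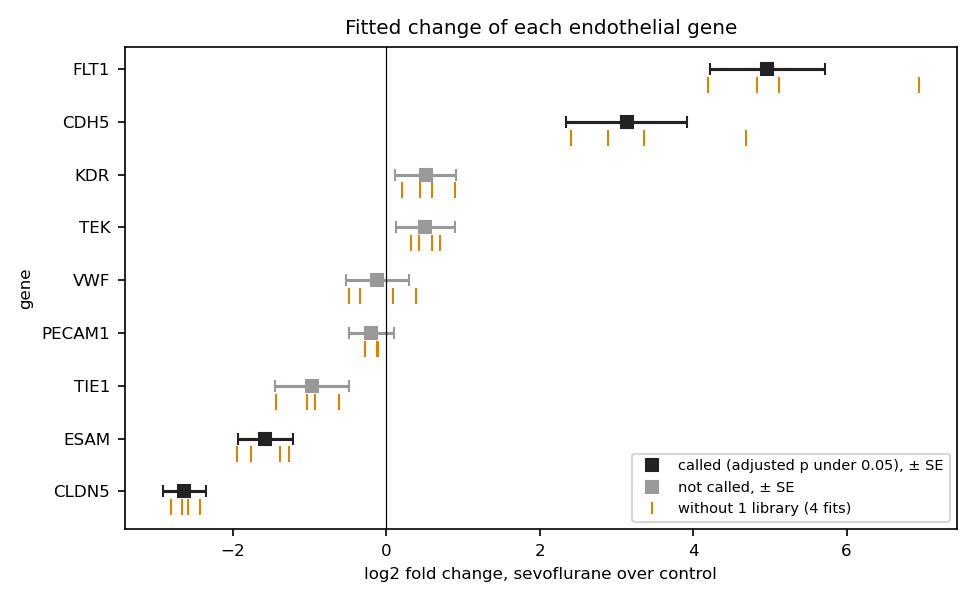
Log2 fold change of sevoflurane over control on the horizontal axis for each endothelial gene, with squares for the fit on all 4 libraries and bars for its SE. Black squares are called genes, grey squares are not called, and orange ticks are the fits without 1 library. The ticks of CLDN5 stay between −2.81 and −2.44, while those of FLT1 run between 4.20 and 6.95.

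The reads of CLDN5 per read of another member were lower in both sevoflurane libraries than in both controls for all 8 partners. The same held per read of 89.9% of the other 15416 tested genes, so the order is not particular to these partners. Against PECAM1, the ratio was 0.839 and 0.905 in the sevoflurane female and male, against 3.89 and 5.59 in the control female and male. For ESAM, the other junction gene that fell, it was 1.13 and 1.74 with sevoflurane, against 2.17 and 3.68 in controls. With CDH5 the gap was wider, at 1.99 and 2.63 with sevoflurane, against 65.4 and 419 in controls. These ratios need no scaling between libraries. They were computed after the levels had been seen and carry no test.

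**Figure D3:**
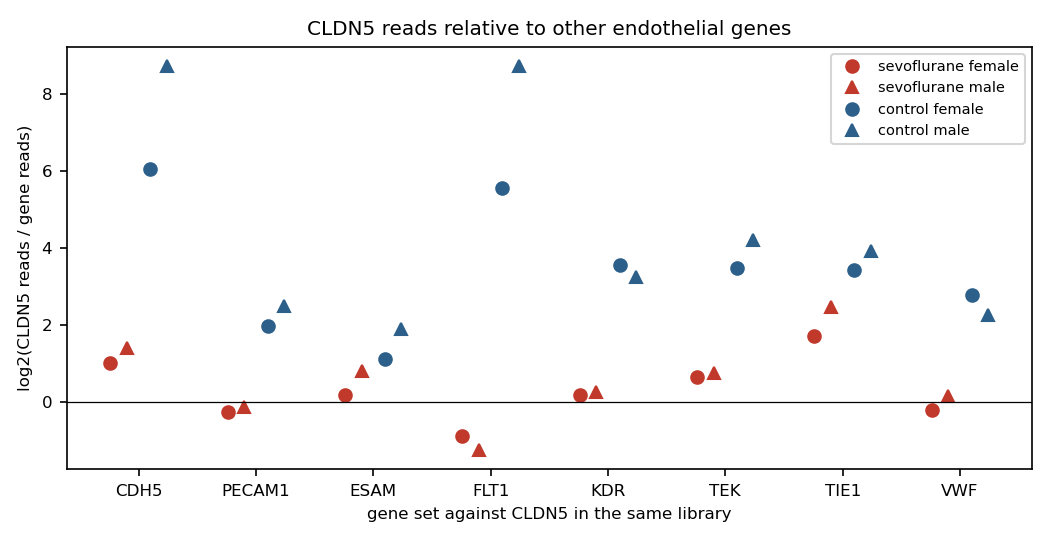
Log2 of the reads of CLDN5 per read of each other endothelial gene in the same library, with sevoflurane in red left of control in blue, circles for females and triangles for males. The sevoflurane points lie below the control points for each of the 8 genes, closest for ESAM and farthest apart for FLT1.

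Males and females were compared in a fit with condition and sex as terms. None of the 9 genes was called between the sexes by edgeR, beside 1.84% of all tested genes. Of the 9, 0 had an unadjusted edgeR p under 0.05, a share not given here for all genes. The largest difference was that of CDH5, with a male over female log2 fold change of −1.11 ± 0.63 (edgeR adjusted p = 0.601). A difference between the sexes in the change with sevoflurane could not be tested, since each sex held 1 library per condition.

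By the distance between log2 CPM profiles centred over the 4 libraries, the genes most like CLDN5 were LSM7, a subunit of an RNA-binding ring in splicing and messenger RNA decay, at 0.037, CPXM1, a carboxypeptidase-like secreted protein, at 0.10, and YIF1A, a protein of traffic between endoplasmic reticulum and Golgi, at 0.11. LSM7 fell by 2.65 on the log2 scale, beside 2.63 for CLDN5.

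Among the junction partners of claudin-5, most had no call. Of 20 listed, 19 entered the test, and 3 rose, 1 fell and 15 had no call, which made 21.1% called beside 40.7% of all tested genes, with a median log2 fold change of 0.11. CLDN12, another claudin, was at 40.4 and 41.4 CPM in the sevoflurane female and male, against 4.70 and 1.69 CPM in the control female and male (3.66 ± 0.53). AFDN, the adaptor afadin of adherens junctions, rose by 3.29 ± 0.43. Without the control female library CLDN12 was at 4.62 and AFDN at 3.92. TJP1, the scaffold ZO-1 that anchors claudins, rose by 1.10 ± 0.25, a call lost without the control male library, and was picked for mention once its values were known. The gene that fell was CLDN3, with 4 and 2 reads in the sevoflurane female and male, against 22 and 136 in the control female and male (−5.04 ± 1.22). CLDN3 was highest in the library rich in choroid plexus markers. Leaving out the control male (−2.85) or either sevoflurane library ended its call, and it was at −5.86 without the control female. OCLN, which encodes occludin, was not called (1.35 ± 0.82, named after its values were seen). Without the control male library 5 junction partners rose and 0 fell, and without either sevoflurane library 3 rose and 0 fell. The median was 0.00 without the control female.

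Among ligands and partners of the VEGF, angiopoietin and Notch pathways, 5 of 18 rose, 2 fell and 11 were not called, with a median of 0.34; these calls are 38.9% of the list, near the 40.7% of all tested genes. JAG1, a Notch ligand, was at 21.6 and 12.02 CPM in the sevoflurane female and male, against 0.652 and 1.07 CPM in the control female and male (4.30 ± 0.58). ANGPT2, an angiopoietin released by endothelium that opposes TIE2 signalling in many settings, was at 9.11 and 8.38 CPM with sevoflurane, against 0.913 and 1.60 CPM in controls (2.80 ± 0.57). The other genes that rose, outside the naming rule, were PTPRB, NOTCH1 and PLCG1. Of these PTPRB, which encodes the phosphatase VE-PTP that acts on TIE2 and VE-cadherin, was called in each fit without 1 library, and the others were not. Both genes that fell encode ligands of VEGFR1, namely PGF (−2.09 ± 0.63) and VEGFB (−1.73 ± 0.42). VEGFA, the ligand of both VEGF receptors, was at 67.1 and 67.7 CPM with sevoflurane, against 49.1 and 50.3 CPM in controls, and was not called (0.44 ± 0.25, also picked once its values were known). ANGPT2 lost its call without either sevoflurane library. PGF lost its own with library totals and with the control male or either sevoflurane library left out, and stood at −2.76 without the sevoflurane female. VEGFB was at −2.35 without the sevoflurane female library and lost its call without the male. In all, fewer of these genes were called without either sevoflurane library or the control male, and the same held for all tested genes.

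Transporters of the barrier were measured for 19 of 20 listed genes, and 8 rose, 2 fell and 9 were not called. The called share was 52.6%, beside 40.7% of all tested genes, with a median of 0.46. ABCC4, an efflux pump of the same superfamily as ABCB1, had 118 and 131 reads in the sevoflurane female and male, against 10 and 2 in the control female and male (4.23 ± 0.75). INSR, the insulin receptor, was at 28.3 and 21.02 CPM with sevoflurane, against 1.37 and 1.69 CPM in controls (4.01 ± 0.43). MFSD2A, a lipid transporter that restrains vesicle traffic across brain endothelium, fell by 1.61 ± 0.34. SLC38A5, an amino acid transporter, fell by 1.47 ± 0.29. ABCG2, the other main drug efflux pump, was at 15.1 and 14.0 CPM with sevoflurane, against 14.0 and 13.0 CPM in controls, and SLC2A1, the glucose transporter GLUT1, was at 69.1 and 99.9 CPM with sevoflurane, against 124 and 95.5 CPM in controls. Neither was called (0.11 ± 0.34 and −0.38 ± 0.30), and both were named after their values were seen. ABCC4 was at 5.49 with the control female left out and 3.61 with the control male left out, and the call of MFSD2A was lost without the sevoflurane female. Without the control male or the sevoflurane male library 5 transporters rose and 2 fell.

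In the Wnt pathway that induces and keeps the barrier, 2 of 15 genes rose, 1 fell and 12 were not called. That made 20.0% called, beside 40.7% of all tested genes, with a median of −0.27. LRP6, a Wnt co-receptor, was at 33.7 and 34.6 CPM in the sevoflurane female and male, against 2.15 and 0.977 CPM in the control female and male (4.42 ± 0.49, and 5.14 without the control female). AXIN2, a feedback inhibitor and common target of the pathway, rose by 2.48 ± 0.50, a call lost without the sevoflurane female library. APCDD1, an inhibitor of the pathway, fell by 1.13 ± 0.26, a call lost when the control female or the sevoflurane male was left out. The counts were 3 higher and 0 lower with the control female left out, 2 and 2 with the control male, 1 and 3 with the sevoflurane female, and 2 and 0 with the sevoflurane male left out.

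Transcription factors of endothelium moved both ways. Of the 16 factors in the test 3 rose, 4 fell and 9 had no call, with a median of 0.033. Their called share of 43.8% lay near the 40.7% of all tested genes. EPAS1, the hypoxia-inducible factor HIF-2α that is abundant in endothelium, was at 179 and 105 CPM in the sevoflurane female and male, against 14.3 and 13.5 CPM in the control female and male (3.35 ± 0.35). SOX18, a factor of vessel development, had 8 and 9 reads in the sevoflurane female and male, against 168 and 115 in the control female and male (−4.22 ± 0.56). KLF2, a factor induced by blood flow, fell by 2.62 ± 0.57, and FOXO1, which restrains endothelial growth, rose by 2.93 ± 0.64. The other called factors, outside the naming rule, were ETS1, which rose, and SOX17 and LMO2, which fell, and none of these was called in every fit without 1 library. ERG and FLI1, ETS-family factors that maintain endothelial identity, were not called (0.11 ± 0.45 and −0.04 ± 0.40, named after their values were seen). ERG was at 6.77 and 6.73 CPM with sevoflurane, against 5.81 and 6.75 CPM in controls. FOXO1 was at 3.54 without the control male library and at 2.11, not called, without the sevoflurane male. KLF2 was at −3.32 without the sevoflurane female and lost its call without the sevoflurane male. Calls numbered 2 higher and 2 lower with either the control male or the sevoflurane female left out, and 1 and 1 without the sevoflurane male library, where the median was −0.06.

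Other endothelial surface and caveolar genes were tested for 30 of 34 listed, and 6 rose, 6 fell and 18 were not called. This share of 40.0% lay near the 40.7% of all tested genes. The median was −0.07, and 0.16 with library totals. EGFL7, a protein secreted by endothelium, was at 23.3 and 15.7 CPM in the sevoflurane female and male, against 141 and 150 CPM in the control female and male (−2.90 ± 0.31). ADGRF5, an adhesion receptor of endothelium, was at 22.3 and 16.5 CPM with sevoflurane, against 2.41 and 0.977 CPM in controls (3.49 ± 0.57). EFNB2, the ephrin of arterial endothelium, rose by 3.58 ± 0.72. MMRN1, multimerin 1, had 3 and 2 reads with sevoflurane, against 12 and 28 in controls (−3.23 ± 0.96). CALCRL and RAMP2, whose proteins together form a receptor for adrenomedullin, were picked after their values were seen, since CALCRL rose by 2.07 ± 0.44 and RAMP2 fell by 2.83 ± 0.42. The call of CALCRL was lost without the sevoflurane male library, and RAMP2 was called in each fit without 1 library. PLVAP, which marks fenestrated endothelium such as that of the choroid plexus, was at 2.91 and 2.20 CPM with sevoflurane, against 3.13 and 3.29 CPM in controls, and was not called (−0.33 ± 0.57, named after its values were seen). PLVAP is 1 gene at a low level, and the part of choroid plexus vessels in the endothelial values was not tested. Without the control female library ADGRF5 was at 4.32, EFNB2 at 5.12 and MMRN1 at −3.83. EFNB2 was at 2.87 without the control male. MMRN1 lost its call without the control male (−2.23), either sevoflurane library and with DESeq2. Without either sevoflurane library 3 of these genes rose and 3 fell, and without the control male 4 rose and 4 fell.

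**Figure D4:**
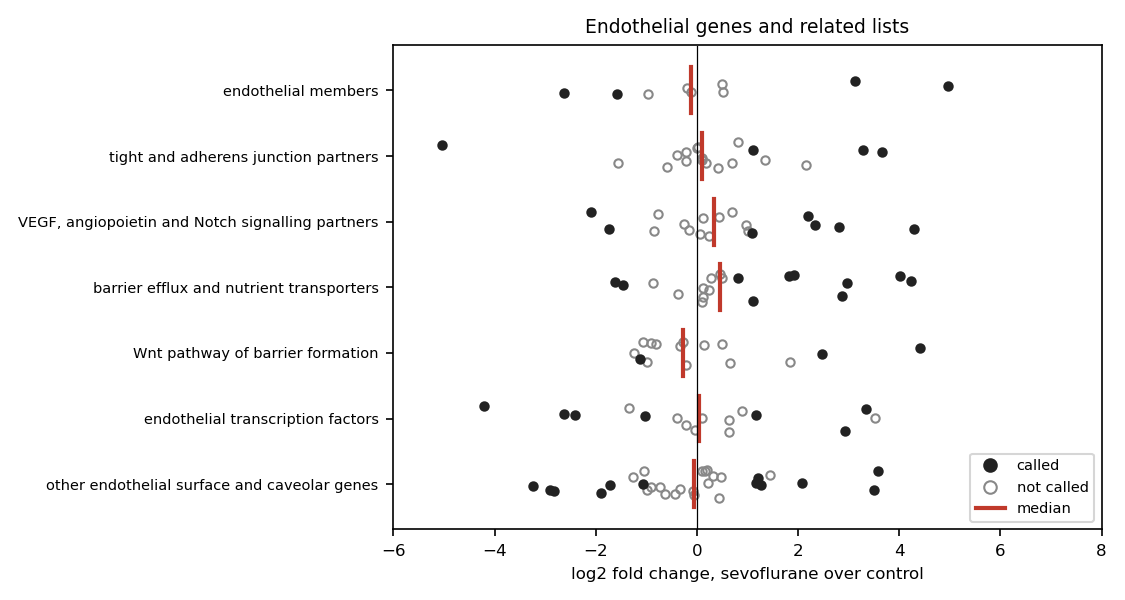
Log2 fold change of sevoflurane over control on the horizontal axis for the 9 endothelial members and 6 lists of related genes, 1 point per gene. Filled points are called genes, open points are not called, and red lines are list medians. Called genes lie on both sides of 0 in each list, and the medians run between −0.27 and 0.46.

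Markers of cell types next to endothelium were read beside these values. Their counts stand against 21.3% of all tested genes called higher and 19.4% called lower. Of 15 pericyte and smooth muscle markers, 2 rose and 2 fell, with a median of −1.24, and they summed to 232.0 and 154.5 CPM in the sevoflurane female and male, against 328.1 and 236.5 CPM in the control female and male. RGS5, a pericyte regulator of G-protein signalling, rose by 1.93 ± 0.34, and so did ABCC9, while the smooth muscle genes ACTA2 and TAGLN fell. Each of those 4 was called in every fit without 1 library. With the control male or the sevoflurane female left out, 4 of the 15 fell, and the median of the tested markers was −0.67 without the sevoflurane male and −0.47 with a minimum of 5 CPM in 2 libraries. The 9 endothelial members summed to 181.0 and 162.2 CPM with sevoflurane, against 240.6 and 281.8 CPM in controls. Without CLDN5, left out once its values were known, the other 8 summed to 159.5 and 141.8 CPM with sevoflurane, against 129.8 and 132.8 CPM in controls. Of that sum FLT1 alone made 39.9 and 48.4 CPM with sevoflurane, against 2.35 and 0.355 CPM in controls. These 8 did not move 1 way, since PECAM1, TIE1 and ESAM lay below the controls and VWF overlapped them. Of 5 tested platelet and leukocyte markers 1 rose (PTPRC, the leukocyte marker CD45, not called without either sevoflurane library) and 0 fell, and all 12 summed to 14.5 and 17.9 CPM with sevoflurane, against 11.7 and 11.8 CPM in controls. CD3E, of the T cell receptor complex, had the highest mean level of this list over the 4 libraries and was not called (0.50 ± 0.62); PTPRC was above it in both sevoflurane libraries. Of 4 tested red blood cell markers 0 rose and 2 fell, HBQ1 (−6.39 ± 1.36) and HBA. Those 7 markers summed to 2.79 and 2.13 CPM with sevoflurane, against 14.4 and 37.0 CPM in controls. HBQ1 was at −7.25 with the control female left out and −3.79 with the control male left out, and it lost its call without either sevoflurane library. HBA lost its call without the sevoflurane male. Of 7 tested choroid plexus markers 3 fell (KCNJ13, SLC13A4 and ECRG4) and 0 rose, without either sevoflurane library 1 fell, and with the control female left out 8 of 9 fell. SLC13A4 was called in each fit without 1 library, and KCNJ13 and ECRG4 were not. TTR had the highest level of that list.

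The remaining brain cell types differed in their counts, which also stand against 21.3% of all tested genes called higher and 19.4% called lower. Of 12 microglia markers 7 fell and 0 rose, a share called of 58.3% beside 40.7% of all tested genes, with summed levels of 190.3 and 252.0 CPM in the sevoflurane female and male, against 505.6 and 462.1 CPM in the control female and male. CSF1R, the receptor with the highest level of that list, was at −0.93 ± 0.29, a call lost with library totals and without any 1 library. Of 10 astrocyte markers 1 rose (SLC1A2) and 4 fell (GFAP, S100B, ALDH1L1 and ALDOC), with summed levels of 3758 and 4594 CPM with sevoflurane, against 5564 and 5503 CPM in controls, and with library totals 3 rose and 2 fell. In fits that left out the control female, the sevoflurane female or the sevoflurane male, 2 fell. Without GFAP, left out once its values were known, the other 9 summed to 3505 and 4042 CPM with sevoflurane, against 3247 and 3167 CPM in controls. Of these 9 only SLC1A2 was called higher (4.30 ± 0.41), while S100B, ALDH1L1 and ALDOC were called lower. The calls of SLC1A2 and S100B held in each fit without 1 library, and those of ALDH1L1 and ALDOC did not. The median of all 10 was −0.29. GFAP, the astrocyte filament, fell by 2.53 ± 0.43 (−3.19 without the sevoflurane male library). Of 9 fibroblast markers 1 rose and 4 fell (DCN, COL1A1, COL1A2 and FBLN1), with summed levels of 279.4 and 235.9 CPM with sevoflurane, against 728.1 and 644.4 CPM in controls. The gene that rose was PDGFRA (0.99 ± 0.24), which oligodendrocyte precursors also express, and its call was lost without either control library and without the sevoflurane male. Of those that fell, COL1A1 and COL1A2 were called in each fit without 1 library, and DCN and FBLN1 were not. The falls of this list numbered 7 with the control male left out, 3 with the control female left out and 2 with either sevoflurane library left out. For 10 oligodendrocyte marker IDs there was 1 rise (MOBP) and 0 falls, with a median of 0.07 and summed levels of 3145 and 4197 CPM with sevoflurane, against 1536 and 6625 CPM in controls. With the control male left out 4 of them rose, at a median of 1.35, and with the control female left out 1 rose and 1 fell, at a median of −0.60. Leaving out the sevoflurane male gave 0 rises and 0 falls, at a median of −0.38. For 10 neuron markers there was 1 rise (SYT1) and 1 fall (RBFOX3). SYT1 was called in each fit without 1 library, and RBFOX3 was not. The part of any of these cell types in the endothelial values was not tested.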

How the data were processed

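Total RNA of the macaque amygdala was sequenced in 4 Illumina libraries, per the labels' protocols. The authors deposited raw read counts per Ensembl gene ID, not normalized, aligned with HISAT2 per the submitters' processing notes. No source used here names the counting program, genome build, annotation or strand setting; without strand, reads of overlapping genes cannot be told apart. Symbols were paired with 24173 of 35395 IDs. The members and gene lists were chosen with earlier results of these data known. Named genes were all members, the 2 called genes of largest rise and of largest fall (same direction in both sexes) of each related list, the most abundant marker of each other cell type, and the 3 genes nearest CLDN5 in profile.

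Genes were filtered with filterByExpr (minimum count 10), which left 15417, scaled by TMM and tested with edgeR 4.0.16 (R 4.3.3), in a model of condition alone (2 residual degrees of freedom); sex was tested in a model that also held condition (1 residual degree). Standard errors were derived from the F statistic. Log2 CPM used a prior count of 2. The script was tested on simulated data. The 2 libraries of each condition differ in sex, so they come from different animals and the spread behind the p-values holds any difference between the sexes; an exact two-sided permutation test of 2 against 2 cannot go below p = 0.333. Intervals cover counting error only. On the RefSeq assembly FLT1, PECAM1, CDH5 and TIE1 overlap another annotated gene, so reads could be shared. Protein sequences and lengths were not used here. Alternatives were DESeq2 1.42.0 and its size factors, library totals, other filters, sex as a term, and leaving out each library.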

Additional observations from a re-analysis of the deposited data

Results flagged for a closer look

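In 4 named genes the difference in log2 CPM, sevoflurane minus control, had opposite signs in females and males, with 1 library for each sex and condition, so the difference between the sexes was not tested. VWF, the 1 endothelial gene among them, was at 0.61 in females and −0.74 in males, a gap of 1.35. TTR, which encodes transthyretin and is abundant in choroid plexus, was at 0.996 in females and −12.8 in males, a gap of 13.8. MBP, a myelin protein gene, was at 1.03 in females and −1.46 in males, a gap of 2.50. SNAP25, a gene of synaptic vesicle release, was at −0.04 in females and 0.66 in males, a gap of −0.71. Genes named by rule from the related lists had to move the same way in both sexes, so they could not be flagged. Opposite signs were found for 14.6% of all tested genes.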

How the results depend on the processing

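FLT1 and CDH5 stayed called higher and CLDN5 and ESAM called lower with DESeq2, with its size factors, with library totals, with no filter, with a filter of 5 CPM and with sex as a replicate block. Without 1 library, 2 to 4 members were called. All genes called numbered 3469 to 5800 without 1 library, against 6278, and 7825 with the replicate block, where the related lists had 51 called genes against 43. The labels give no replicate numbers, and sex is what the block pairs. The related lists had 22 to 38 called genes of 118 or 119 tested without 1 library. The members' median was −0.28 to 0.33 without 1 library. Between the sexes 283 genes were called, and 603 with no filter, where more genes were tested. With library totals 63.3% of called genes were higher, against 52.3% with TMM, and the median of all genes shifted to 0.24. Signs turned for PECAM1 with library totals (0.035), for VWF with library totals (0.12) and, over the fits that left out 1 library each, in VWF (−0.49 to 0.38), CD3E (−0.080 to 0.97), TTR (−11.9 to 0.099) and MBP (−1.36 to 0.93); none of these is called in the fit on all libraries, and the causes were not tested. With 4 and 4 reads in the control male library, FLT1 and CDH5 have rises whose size is imprecise. Description by protein length was not run.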
